A study of Mus musculus with 24 samples.

Results

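The mitochondrial ribosomal protein genes are the nuclear genes whose symbols begin with Mrpl (for the large subunit) or Mrps (for the small subunit). All symbols made of Mrpl or Mrps, a number and at most one letter were taken from the deposited count table, and 4 symbols with a pseudogene ending were left out. This gave 76 genes of the 23762 in the table, 47 with an Mrpl and 29 with an Mrps symbol. All 76 passed the filter on low counts, as did 16067 genes of the whole table. Mrpl53 had no row under its symbol and was not analysed here. Mrpl58 is listed under its older symbol, Ict1, which the rule does not take, and is given with the mitoribosome proteins of other symbols. The split by symbol is not exactly one by subunit, since Mrps18a and Mrps30 belong to the large subunit and Mrps36 to another complex.

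The mitochondrial ribosome, or mitoribosome, translates the few mRNAs of the mitochondrial genome, which code for core subunits of the respiratory chain and of ATP synthase. Its rRNAs are transcribed in the mitochondrion, whereas every one of its proteins is made in the cytosol from nuclear genes and imported. Part of these proteins have a bacterial counterpart and part were added in the mitochondrial lineage. In the human mitoribosome several proteins bind iron-sulfur clusters, and assembly needs a set of GTPases, helicases and rRNA-modifying enzymes. Naive and primed pluripotent cells are known to differ in their use of mitochondrial respiration.

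The study asked how heme synthesis bears on the exit of mouse embryonic stem cells from naive pluripotency. Cells of 1 line, ES-E14TG2a, were either kept naive with LIF, the GSK3 inhibitor CHIR99021 (3 µM) and the MEK inhibitor PD0325901 (1 µM) on gelatin, called 2iL, or moved towards epiblast-like cells, called EpiLC, for 48 h with bFGF (12 ng/ml) and activin A (20 ng/ml) on plates coated with fibronectin (15 µg/ml). Each state was left untreated, given 0.5 mM succinylacetone (SA), an inhibitor of the heme synthesis enzyme ALAD, for 48 h, or given SA with 10 µM hemin (H), an oxidised form of heme. The 6 groups were thus 2iL, 2iL+SA, 2iL+SA+H, EpiLC, EpiLC+SA and EpiLC+SA+H, with 4 libraries each. Whether the 4 libraries of a group came from separate cultures is not stated in the sources used here, and the p-values below reflect only how these libraries vary, which may be technical.

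Libraries were made from the 3′ ends of mRNAs and held 1857964 to 9069538 counts. The 3 shallowest, 2iL+SA replicate 3 (1857964 counts), EpiLC replicate 3 (2883740) and EpiLC+SA+H replicate 1 (2131987), stood apart from their groups at several mitoribosome genes, and results are also given without them. Naive markers (Tfcp2l1, Esrrb, Klf2, Klf4, Tbx3 and Zfp42) summed to at least 2648 CPM (counts scaled to a common library total) in every naive library and to at most 556 CPM in EpiLC. Primed markers (Fgf5, Fgf15, Otx2, Pou3f1, Dnmt3b and Zic2) summed to 1474 to 2367 CPM in EpiLC and to 294 to 887 CPM in EpiLC+SA. The cell states therefore differ between the groups compared during the transition, and the part of this in the results was not tested. In these bulk libraries fewer cells of a state and less RNA per cell cannot be told apart.

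The summed level of the 76 genes was lower in every naive library with SA than in every one without, although no single gene passed the threshold of an adjusted p under 0.05. The summed level was 5042, 5421, 4916 and 5452 CPM in the 2iL libraries. It was 4213, 4134, 4051 and 4211 CPM in 2iL+SA, so that the highest 2iL+SA library lay below the lowest 2iL library. Naive markers overlapped between these groups, at 3145 to 3271 CPM in 2iL and 3080.1 to 3645 CPM in 2iL+SA. The summed ranges of the pluripotent, trophectoderm, primitive endoderm and fibroblast markers overlapped. The group means were 5208 ± 269.5 CPM (SD, n = 4) in 2iL and 4152 ± 77.2 CPM (SD, n = 4) in 2iL+SA, a difference of −20.3%.

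With hemin beside SA the naive libraries reached 5075, 4993, 4345 and 5149 CPM, all above the 2iL+SA libraries. These overlapped with 2iL at a mean of 4890.5 ± 369 CPM (SD, n = 4). Replicate 3 was the lowest of the 2iL+SA+H libraries. Trophectoderm markers (5 of the 6 listed genes were in the table) summed to 21.6 to 23.0 CPM in 2iL+SA and to 13.4 to 18.8 CPM in 2iL+SA+H, and their part in this difference was not tested. The 3 transition groups had means of 5256 ± 512, 5348 ± 526 and 5196 ± 459.9 CPM (SD, n = 4 each) for EpiLC, EpiLC+SA and EpiLC+SA+H, and each of them overlapped with the others and with 2iL.

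**Figure D1:**
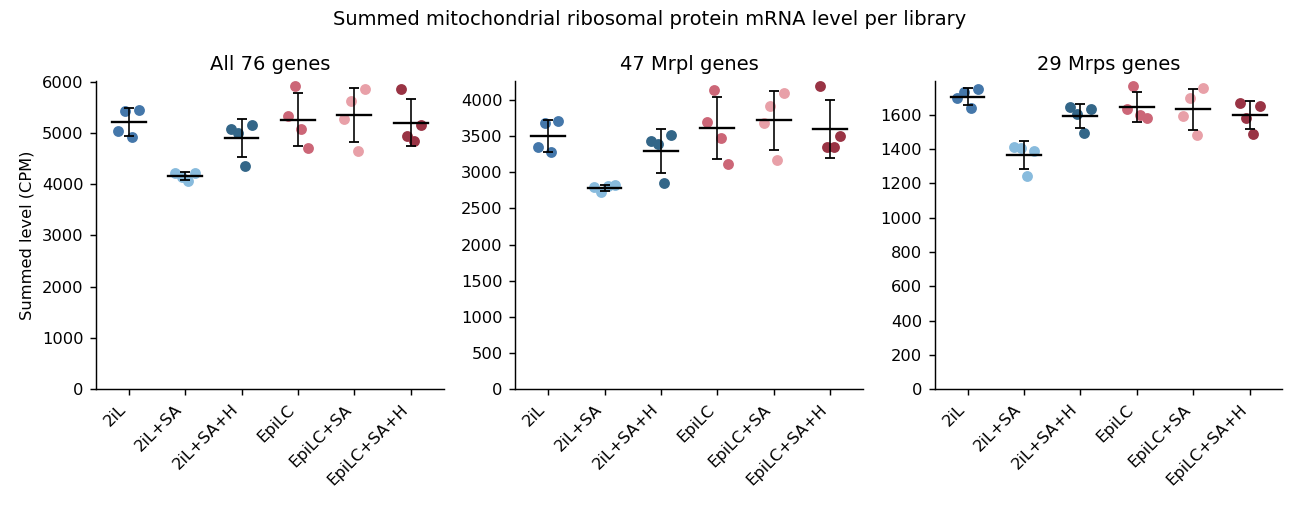
Summed level in CPM (vertical axis) of the 76 mitochondrial ribosomal protein genes, of the 47 Mrpl and of the 29 Mrps genes in each library, by group (horizontal axis). Points are libraries, horizontal lines group means and bars 1 SD (n = 4); the 4 libraries of 2iL+SA lie below all libraries of 2iL and of 2iL+SA+H in each panel.

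Genes with Mrpl and with Mrps symbols shared this pattern. Mrpl genes summed to 3501 ± 224 CPM (SD, n = 4) in 2iL and 2787 ± 41.7 CPM (SD, n = 4) in 2iL+SA. For Mrps genes the corresponding means were 1707 ± 48.3 and 1365 ± 80.4 CPM (SD, n = 4 each). For neither kind of symbol did 2iL and 2iL+SA overlap. The ratio of the Mrpl to the Mrps sum was 2.05 in 2iL, 2.05 in 2iL+SA and 2.07 in 2iL+SA+H, and 2.19, 2.27 and 2.25 in EpiLC, EpiLC+SA and EpiLC+SA+H, and the groups overlapped in each of the 7 comparisons made here.

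The separation of 2iL+SA from 2iL did not rest on the most counted gene or on the scaling. Mrps5, a small subunit protein, was the most counted member in 2iL, with 322.5 ± 19.1 CPM (SD, n = 4), and without it the ranges were 3855 to 3969 CPM in 2iL+SA and 4613 to 5126 CPM in 2iL. With library totals as the only scaling the ranges were 3966 to 4368 and 5082 to 5473 CPM, and with the size factors of DESeq2 4041 to 4395 and 4843 to 5303 CPM. Leaving out the mitochondrially encoded genes, which vary between libraries, gave 4527 to 4656 and 5508 to 6007 CPM.

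Gene by gene, the naive SA difference was small and shared. The log2 fold change of 2iL+SA over 2iL was negative for 67 of the 76 genes and positive for 9, with a median of −0.30 against 0.03 over all genes tested. In 24 of the 76 genes every 2iL+SA library lay below every 2iL library, where 6.87% of all genes did so, and in none did every library lie above, where 5.34% of all genes did. Without the shallow libraries, which removes replicate 3 of 2iL+SA, the count below was 35 of 76 against 11% of all genes. Under the alternatives run the number of genes with a negative sign was 64 to 68.

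No mitoribosome gene was called in this comparison by edgeR's quasi-likelihood test, where 0.0249% of all genes were called higher and 0.0249% lower. At an unadjusted p under 0.05 the counts were 20 lower and 0 higher. The share of all genes at this unadjusted threshold was not counted, here or for the unadjusted counts below. Those counts therefore have no background beside them. DESeq2 called 3 genes lower, Mrpl17, Mrpl43 and Mrps7, with adjusted p of 0.0319, 0.0353 and 0.0470, and 0 higher, where it called 0.691% of all genes lower and 1.29% higher.

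The genes with the smallest unadjusted p, named after their values were seen, show the size of the difference. Mrpl17, a large subunit protein with a bacterial counterpart, had 152, 184, 159 and 210.2 CPM in 2iL and 118, 108, 98.5 and 128 CPM in 2iL+SA, with no overlap. Its log2 fold change was −0.63 (SE 0.18; adjusted p = 0.136, and 0.0319 to 0.349 over the alternatives), and in 2iL+SA+H it had 159.8, 168, 120.4 and 168 CPM. Mrpl43, a large subunit protein of the mitochondrial lineage, had 94.6, 98.7, 90.6 and 97.2 CPM in 2iL and 58.0, 70.3, 47.9 and 65.2 CPM in 2iL+SA. The Mrpl43 groups did not overlap either, with a log2 fold change of −0.65 (SE 0.19; adjusted p = 0.144).

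Mrpl2, which lies near the peptidyl transferase centre, and Mrps34, a small subunit protein of the mitochondrial lineage, had log2 fold changes of −0.48 (SE 0.15; adjusted p = 0.161) and −0.63 (SE 0.20; adjusted p = 0.162). By subunit and origin the median log2 fold change was −0.29 for 30 large subunit proteins with a bacterial counterpart, −0.36 for 18 large subunit proteins of the mitochondrial lineage, −0.28 for 16 small subunit proteins with a bacterial counterpart and −0.37 for 9 small subunit proteins of the mitochondrial lineage. The 4 classes were thus alike in direction. Mitoribosome proteins with other symbols (Aurkaip1, Chchd1, Dap3, Gadd45gip1, Ict1 and Ptcd3) were negative in 6 of 6 cases, with a median of −0.49 and 0 called.

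**Figure D2:**
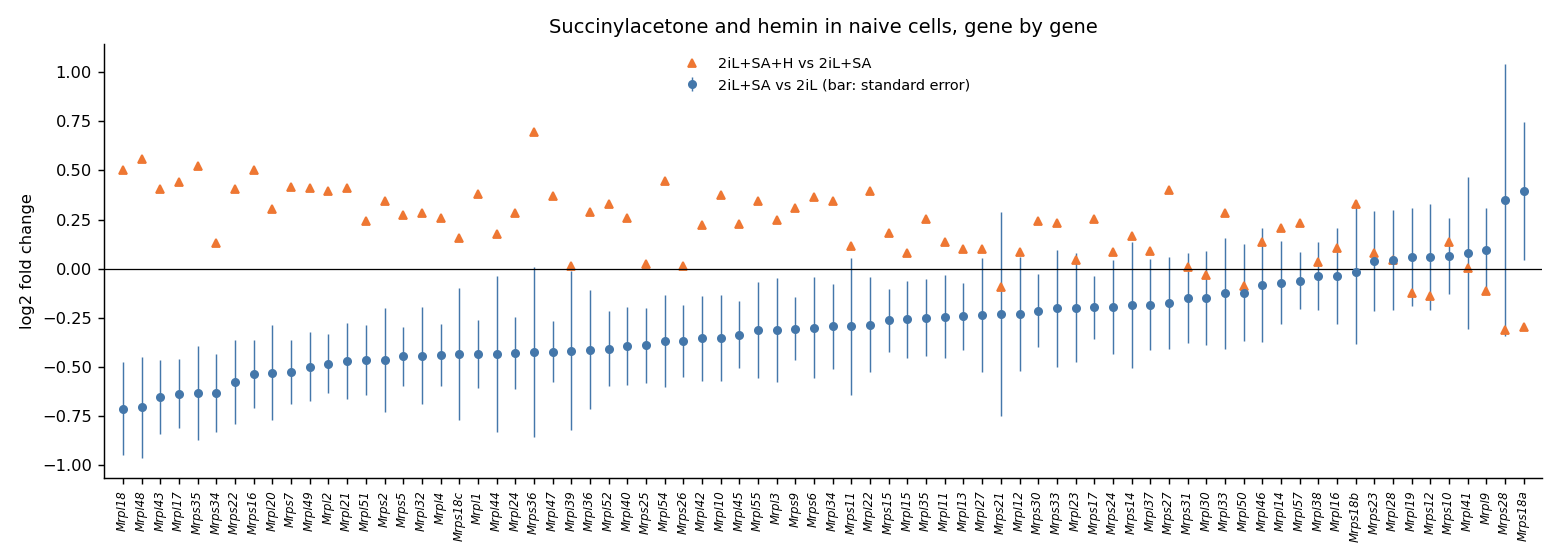
Log2 fold change (vertical axis) of each of the 76 genes, ordered along the horizontal axis by 2iL+SA against 2iL (circles, with the standard error as bars). Triangles give 2iL+SA+H against 2iL+SA, which shares the 2iL+SA libraries, so the 2 sets of points are not independent; 67 circles lie below 0 and 68 triangles above it.

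Hemin given with SA to naive cells went with positive differences. Compared with 2iL+SA, 68 of the 76 genes had a positive and 8 a negative log2 fold change, with a median of 0.24 against −0.01 over all genes. In 12 genes every 2iL+SA+H library lay above every 2iL+SA library, where 2.05% of all genes did so, and in 0 below, where 1.48% did. No gene in the whole table was called in this comparison by edgeR's quasi-likelihood test (0% in each direction), nor any mitoribosome gene by DESeq2, and 12 mitoribosome genes had an unadjusted p under 0.05, all higher. The 2iL+SA libraries enter both naive comparisons, so the opposite signs are not independent of each other.

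Against untreated 2iL, the 2iL+SA+H genes had a median log2 fold change of −0.09, and 50 of 76 were negative. None was called higher (0% of all genes) or lower (0.00622% of all genes), also not by DESeq2, and 1 had an unadjusted p under 0.05, lower. In 3 genes all libraries were lower than all 2iL libraries, where 3.04% of all genes were, and in 0 higher, where 2.78% were.

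The transition from 2iL to EpiLC left the median of the 76 genes at 0.00 (all genes 0.00) and changed 13 genes, 7 higher and 6 lower. Over all genes 15% were called higher and 13.4% lower, so the share of changed mitoribosome genes was near or under the background. Non-overlapping groups gave 4 genes higher (13.7% of all genes) and 12 lower (16.1%).

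Mrps2, a small subunit protein with a bacterial counterpart, fell from 149, 142, 154 and 142 CPM in 2iL to 67.9, 78.8, 31.7 and 80.3 CPM in EpiLC. All 4 EpiLC libraries were under all naive 2iL libraries. The log2 fold change was −1.17 (SE 0.27; adjusted p = 0.00156). Mrps27, a small subunit protein with pentatricopeptide repeats, rose from 11.1, 12.9, 12.8 and 13.8 CPM to 25.8, 25.9, 17.8 and 22.1 CPM, again with no overlap, by 0.86 on the log2 scale (SE 0.23; adjusted p = 0.00579). The calls of Mrps2 and Mrps27 held under all 17 alternatives run.

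The other genes called in the transition moved less. Mrpl15, Mrpl38 (a protein of the central protuberance), Mrpl24, Mrpl28, Mrps24 and Mrps34 rose with log2 fold changes of 0.52 to 0.73. Mrpl52, Mrpl43, Mrps7, Mrpl27 and Mrpl36 fell, with log2 fold changes from −0.82 to −0.46. Without EpiLC replicate 3 only 4 of the 13 calls were kept, those of Mrps2, Mrps27, Mrpl24 and Mrpl38. Mrpl15, Mrpl43, Mrpl52 and Mrps7 then had adjusted p of 0.0663 to 0.103. The log2 fold change of Mrpl15 was then 0.44 in place of 0.68. Without EpiLC replicate 2, 8 of the 13 calls were kept, and those lost included Mrpl24 and Mrpl38 (adjusted p 0.128 and 0.0781). Mrps7 and Mrpl24 lost their calls in 10 and 7 of the 17 alternatives. The counts themselves fell to 3 higher without 2iL replicate 2 or 3 or EpiLC replicate 2 or 3, to 4 higher without 2iL replicate 1, and to 2, 1 and 3 lower without 2iL replicate 2, EpiLC replicate 3 and EpiLC replicate 4.

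With SA during the transition, single mitoribosome genes changed in both directions while the median stayed near 0. Against EpiLC, 8 of the 76 genes were higher and 9 lower in EpiLC+SA by edgeR's quasi-likelihood test, where 12.1% of all genes were called higher and 15.8% lower. The median log2 fold change was 0.05 (all genes 0.00), with 40 positive and 36 negative. Non-overlapping groups gave 10 genes higher (12.5% of all genes) and 6 lower (13.1%). The shares among mitoribosome genes were close to the background in each direction.

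**Figure D3:**
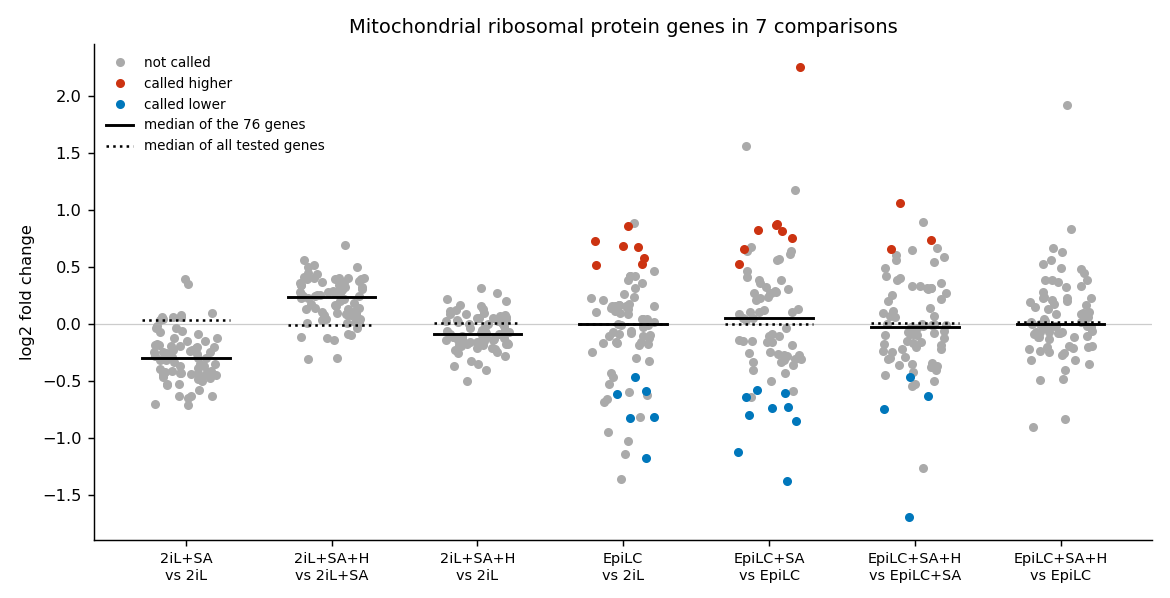
Log2 fold change (vertical axis) of the 76 genes in 7 comparisons (horizontal axis); red and blue points were called higher and lower at an adjusted p under 0.05, solid lines are the medians of the 76 genes and dotted lines those of all tested genes. The 2iL+SA points are shifted down as a group (median −0.30) with none called, whereas the EpiLC+SA points spread to both sides (8 higher, 9 lower) around a median of 0.05.

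Mrps18b had the smallest adjusted p of these and was also the least counted member in 2iL. It is 1 of 3 mammalian paralogs of bacterial S18 and sits in the small subunit, whereas Mrps18c takes the place of bacterial S18 and Mrps18a is a protein of the large subunit in spite of its symbol. Mrps18b had 1.61, 3.02, 2.32 and 1.10 CPM in EpiLC and 6.63, 7.02, 16.3 and 7.58 CPM in EpiLC+SA, without overlap, which corresponds to 6 to 14 and 33 to 77 counts. The log2 fold change was 2.26 (SE 0.39; adjusted p = 1.16e-04). In EpiLC+SA+H it had 3.87, 3.59, 2.48 and 2.00 CPM, and the naive groups had means of 3.75, 3.75 and 4.70 CPM.

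Mrps18a went the other way. It had 34.2, 50.1, 117 and 32.8 CPM in EpiLC and 19.6, 17.0, 29.6 and 22.6 CPM in EpiLC+SA, with no overlap, and fell by 1.38 on the log2 scale (SE 0.36; adjusted p = 0.00527). The 117 CPM belong to the shallow replicate 3, and the log2 fold change was −0.84 without that library and −0.81 without the 3 shallow libraries, still called in both (adjusted p at most 0.0416). For Mrps18c the means were 31.8 ± 12.6 CPM in EpiLC and 37.3 ± 11.0 CPM in EpiLC+SA (SD, n = 4 each). The log2 fold change, 0.22 (SE 0.34; adjusted p = 0.673), turned to −0.041 without EpiLC replicate 3 and to −0.010 without the 3 shallow libraries.

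Mrpl15 and Mrpl52 are large subunit proteins, the former with a bacterial counterpart and the latter of the mitochondrial lineage. Mrpl15 had 238, 283, 423 and 196 CPM in EpiLC and 181, 165, 125 and 160 CPM in EpiLC+SA. Its groups did not overlap, and it fell by 0.85 on the log2 scale (SE 0.20; adjusted p = 0.00217). Mrpl52 had 88.2, 72.8, 44.1 and 63.9 CPM in EpiLC and 111, 103, 123 and 137 CPM in EpiLC+SA. Every EpiLC+SA library was above every EpiLC library, with a log2 fold change of 0.81 (SE 0.19; adjusted p = 0.00251). Mrpl42, another large subunit protein of the mitochondrial lineage, rose from 94.3, 97.1, 45.3 and 107 CPM to 145, 178, 122 and 167 CPM. Here too the groups were separate, and the log2 fold change was 0.83 (SE 0.22; adjusted p = 0.00564). The calls of Mrps18b, Mrps18a, Mrpl15, Mrpl52 and Mrpl42 held under all 17 alternatives.

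The remaining higher calls were Mrpl57, Mrpl27, Mrpl18 (which binds the RNA of the central protuberance), Mrpl23 (near the exit of the peptide tunnel) and Mrps14, with log2 fold changes of 0.53 to 0.88. The remaining lower calls were Mrpl38, Mrps22, Mrpl19, Mrpl55, Mrpl41, Mrpl37 and Mrpl14, from −1.12 to −0.58. Mrps22, a small subunit protein of the mitochondrial lineage, had 58.9, 49.7, 23.6 and 45.7 CPM in EpiLC and 31.4, 32.3, 18.6 and 25.1 CPM in EpiLC+SA, where only the shallow EpiLC replicate 3 fell inside the range of EpiLC+SA. It fell by 0.74 on the log2 scale (SE 0.22; adjusted p = 0.0122). Mrpl14, which lies at the interface of the subunits and is bound by the assembly factor Malsu1, had 42.7, 34.3, 41.4 and 36.4 CPM in EpiLC. In EpiLC+SA it had 32.0, 26.4, 17.3 and 27.7 CPM, all lower, with a log2 fold change of −0.58 (SE 0.21; adjusted p = 0.0457). This call of Mrpl14 was kept in 7 of 17 alternatives, the fewest of the 17 genes, and those of Mrpl23 and Mrpl41 in 8 and 10.

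Leaving out EpiLC replicate 3 ended 9 of the 17 calls (Mrpl14, Mrpl18, Mrpl19, Mrpl23, Mrpl27, Mrpl37, Mrpl41, Mrpl55 and Mrps14; adjusted p 0.0629 to 0.268). The log2 fold change of Mrpl41, −1.12 with all libraries, was then −0.54, and −0.51 without the 3 shallow libraries, and that of Mrpl18 was 0.41 in place of 0.66. Leaving out replicate 1, 2, 3 or 4 of EpiLC+SA ended 5, 7, 6 and 5 calls, with adjusted p up to 0.103, 0.108, 0.158 and 0.116, and replicate 1, 2 or 4 of EpiLC 4, 3 and 3 calls, up to 0.0986, 0.0950 and 0.0936. The counts of higher genes were then 4 without EpiLC replicate 3 or EpiLC+SA replicate 2 and 5 without EpiLC+SA replicate 1 or 4, and that of lower genes 4 without EpiLC+SA replicate 3. Without the 3 shallow libraries 9 genes were higher and 15 lower, where 15% of all genes were called higher and 18% lower.

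**Figure D4:**
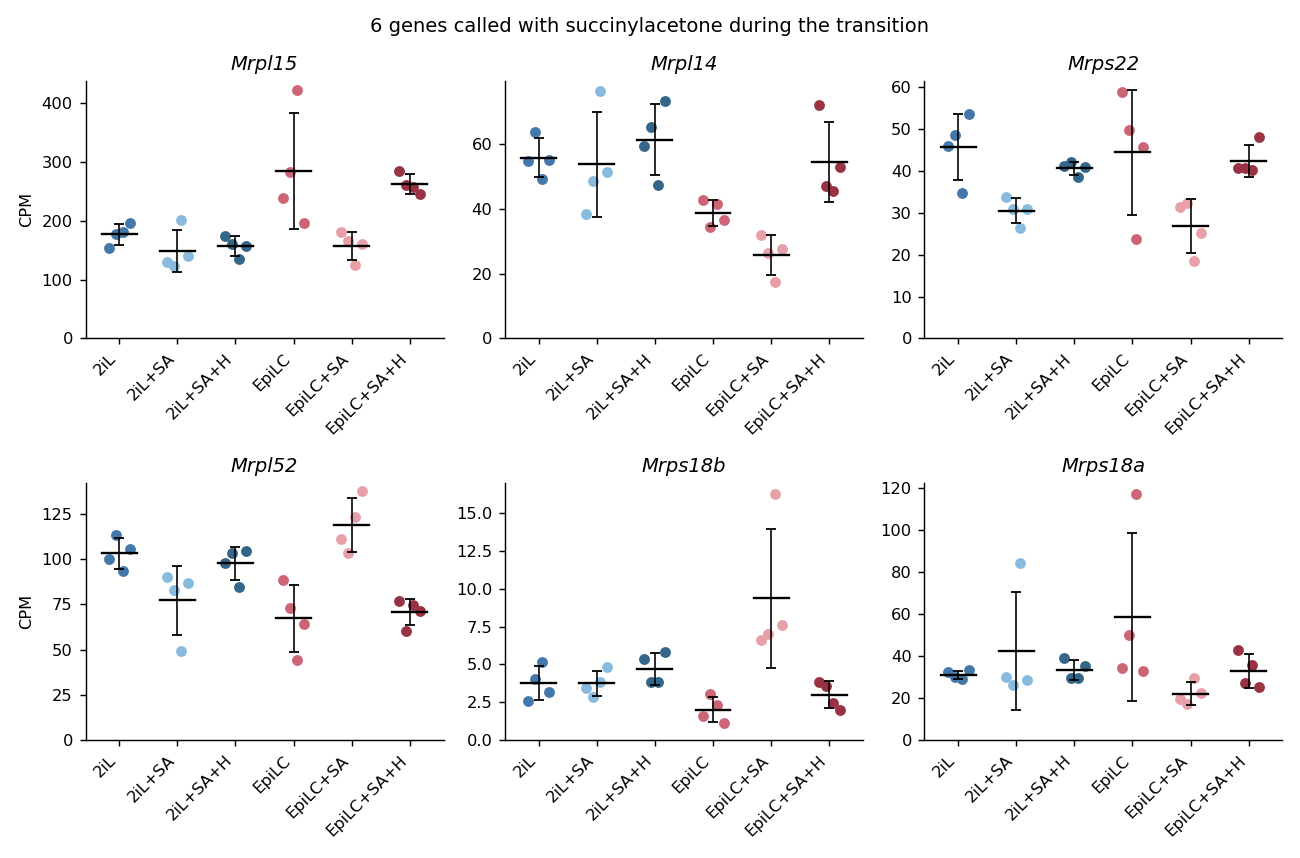
Level in CPM (vertical axes, from 0) of 6 genes in each library by group (horizontal axes); points are libraries, lines group means and bars 1 SD (n = 4). Mrpl15, Mrpl14 and Mrps22 have lower means and Mrpl52 and Mrps18b higher means in EpiLC+SA than in EpiLC and than in EpiLC+SA+H, and Mrps18a has 1 high library in EpiLC (117 CPM) and 1 in 2iL+SA (84.2 CPM).

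The promoters are shown for 5 genes called with SA or hemin in the transition, since genes that moved in opposite directions can be compared there. Each line gives the 150 bases before the RefSeq transcription start (GRCm38.p6), 5′ to 3′ on the strand of the gene, and capitals mark the ETS-family motif CCGGAAG on either strand.
Mrps18a, chr17:46110854-46111003, plus strand: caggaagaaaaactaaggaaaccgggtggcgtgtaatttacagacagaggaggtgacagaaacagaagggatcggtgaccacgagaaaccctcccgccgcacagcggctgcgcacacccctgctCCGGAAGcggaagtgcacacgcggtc
Mrps18b, chr17:35916441-35916590, minus strand: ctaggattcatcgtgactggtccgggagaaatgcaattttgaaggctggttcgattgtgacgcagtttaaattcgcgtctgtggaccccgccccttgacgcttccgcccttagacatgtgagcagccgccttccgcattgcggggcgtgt
Mrpl52, chr14:54426759-54426908, plus strand: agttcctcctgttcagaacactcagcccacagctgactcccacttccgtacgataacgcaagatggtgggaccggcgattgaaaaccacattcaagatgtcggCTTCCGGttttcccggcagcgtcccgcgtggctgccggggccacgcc
Mrpl14, chr17:45686199-45686348, plus strand: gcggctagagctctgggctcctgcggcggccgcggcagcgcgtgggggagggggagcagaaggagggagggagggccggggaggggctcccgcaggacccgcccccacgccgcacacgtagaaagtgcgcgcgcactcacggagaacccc
Mrps22, chr9:98601680-98601829, minus strand: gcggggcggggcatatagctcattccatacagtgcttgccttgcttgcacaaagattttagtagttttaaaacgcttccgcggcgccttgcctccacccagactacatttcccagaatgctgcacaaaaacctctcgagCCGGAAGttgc

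The motif CCGGAAG stood in Mrps18a and Mrps22, lower with SA, and in Mrpl52, higher with SA, and not in the bases shown for Mrps18b or Mrpl14. Promoters were found for 67 of the 76 genes, and 250 bases before the start were searched on both strands. CCGGAAG was in 16 of the 67 (23.9%), in 14.9% of the tested genes with a promoter and in 7.83% of all 27025 promoters. The NRF1 motif was in 3 of 67 (4.48%), against 1.85% and 0.877%, and the YY1 motif was in 1 of 67 (1.49%), against 0.847% and 0.411%. By call in EpiLC+SA over EpiLC, CCGGAAG was in 3 of 8 higher, 2 of 6 lower and 11 of 53 uncalled genes with a promoter. A match says only that the letters are present.

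Further genes were named for their function. Mrpl12, the stalk protein that also binds the mitochondrial RNA polymerase, had means of 162 ± 54.0 CPM in EpiLC and 104 ± 5.93 CPM in EpiLC+SA (SD, n = 4 each), with a log2 fold change of −0.64 (SE 0.29; adjusted p = 0.103). It reached an adjusted p of 0.0407 without EpiLC replicate 4 and of 0.0301 without the 3 shallow libraries. Mrps12, a protein of the decoding centre, and Mrpl45, which holds the ribosome at the inner membrane, had log2 fold changes of −0.33 (SE 0.27; adjusted p = 0.379) and 0.27 (SE 0.17; adjusted p = 0.243). Mrps5 had 0.11 (SE 0.15; adjusted p = 0.635), which turned to −0.029 without EpiLC replicate 3.

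Mrps36 carries a ribosomal symbol but its product is a subunit of the 2-oxoglutarate dehydrogenase complex, which makes succinyl-CoA, a precursor of heme. It was not called in any comparison, with group means of 3.35 to 8.67 CPM and a log2 fold change of 0.36 in EpiLC+SA over EpiLC (SE 0.43; adjusted p = 0.562). Of the 5 genes whose products contact iron-sulfur clusters in the human mitoribosome (Mrps6, Mrps16, Mrps18a, Mrps18c and Mrps25), only Mrps18a was called in EpiLC+SA against EpiLC, and the sum of the 5 was 302 ± 45.1 CPM in EpiLC and 279 ± 26.8 CPM in EpiLC+SA (SD, n = 4 each), with overlap.

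Adding hemin to SA during the transition changed 7 of the 76 genes, 3 higher and 4 lower in EpiLC+SA+H than in EpiLC+SA, where 10.5% of all genes were called higher and 5.95% lower. The median log2 fold change was −0.03 (all genes 0.01). Non-overlapping groups gave 7 genes higher (11.0% of all genes) and 6 lower (9.14%). Between these groups the pluripotent markers (Pou5f1, Sox2 and Nanog) summed to 289.8 to 616 CPM in EpiLC+SA and 801 to 1107 CPM in EpiLC+SA+H, and the fibroblast markers, 4 of the 5 listed genes, to 9.78 to 17.7 and 4.63 to 8.23 CPM. The neuroectoderm markers summed to 3.59 to 12.8 CPM in EpiLC+SA and 17.8 to 31.8 CPM in EpiLC+SA+H. None of these pairs of ranges overlapped, and their part in the result was not tested. The EpiLC+SA libraries enter this comparison and the previous one, so the 2 fold changes of a gene are not independent of each other.

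Mrpl14 showed the smallest adjusted p. It had 72.1, 46.97, 45.5 and 52.9 CPM in EpiLC+SA+H against 32.0, 26.4, 17.3 and 27.7 CPM in EpiLC+SA, with no overlap and a log2 fold change of 1.06 (SE 0.22; adjusted p = 0.00117). Mrps18b, Mrpl52 and Mrpl15 were also called with SA, in the other direction. Mrps18b fell by 1.70 (SE 0.37; adjusted p = 0.00227), Mrpl52 fell by 0.75 (SE 0.19; adjusted p = 0.00779) and Mrpl15 rose by 0.73 on the log2 scale (SE 0.20; adjusted p = 0.0104). Mrpl15 had 286, 262, 258 and 246 CPM in EpiLC+SA+H, all above EpiLC+SA. Mrpl52 had 76.98, 60.3, 74.6 and 71.1 CPM in EpiLC+SA+H, all below EpiLC+SA. The calls of Mrpl14, Mrps18b, Mrpl52 and Mrpl15 held under all 17 alternatives.

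Mrps22 rose to 40.7, 40.6, 40.2 and 48.0 CPM with hemin, by 0.66 on the log2 scale (SE 0.22; adjusted p = 0.0363), with no overlap. Mrpl4, which lines the peptide tunnel, and Mrpl34 were called lower, by −0.47 (SE 0.16; adjusted p = 0.0430) and −0.63 (SE 0.21; adjusted p = 0.0449). The call of Mrpl4 was lost without any 1 of the 8 libraries (adjusted p 0.0503 to 0.146), and that of Mrpl34 without EpiLC+SA replicate 1, 2 or 4 or EpiLC+SA+H replicate 2, 3 or 4 (0.0600 to 0.207). The call of Mrps22 was lost without EpiLC+SA replicate 3 or 4 or EpiLC+SA+H replicate 2, 3 or 4 (0.0565 to 0.101). The count of lower genes was then 2 without EpiLC+SA replicate 1, 2 or 4 or EpiLC+SA+H replicate 2 or 3, that of higher genes 5 without EpiLC+SA replicate 1, and without the 3 shallow libraries the counts were 7 higher and 10 lower, where 13.8% of all genes were called higher and 9.55% lower.

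Compared with untreated EpiLC, EpiLC+SA+H had no mitoribosome gene called in either direction, where 0.0436% of all genes were called higher and 0.0187% lower. At an unadjusted p under 0.05 there were 4 higher and 3 lower, and DESeq2 called 0. The median was 0.00 (all genes 0.02). In 1 gene, Mrpl14, all libraries were higher (1.52% of all genes) and in 0 lower (2.26%). Mrpl14 had 45.5 to 72.1 CPM in EpiLC+SA+H and 34.3 to 42.7 CPM in EpiLC, and was not called here. Mrps28 had the largest fitted value here, 1.93 on the log2 scale (SE 0.74; adjusted p = 0.360), and was named after its values were seen. Its counts ran from 3 to 490 among the EpiLC+SA+H libraries.

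The response to SA itself differed between the 2 states for 9 genes by a test of the difference, 8 with a higher and 1 with a lower value in the transition, where 5.27% of all genes were called higher and 9.07% lower. The median of the difference was 0.37 log2 units against −0.05 over all genes, positive for 55 of the 76 genes. Mrpl52 differed by 1.22 (SE 0.27; adjusted p = 0.00378), having a log2 fold change of −0.41 with SA in naive cells and 0.81 in the transition. Mrps18b differed by 2.28 (SE 0.53; adjusted p = 0.00586).

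Mrpl18 differed by 1.37 (SE 0.33; adjusted p = 0.00746). It had 114, 149.7, 117 and 143 CPM in 2iL and 86.8, 88.1, 58.3 and 84.5 CPM in 2iL+SA, whereas it had 114, 113, 43.0 and 74.6 CPM in EpiLC and 121, 143, 118 and 165 CPM in EpiLC+SA. Both pairs of groups were separate, in opposite directions. Mrpl42 differed by 1.18 (SE 0.30; adjusted p = 0.0112), and Mrpl48, a protein of the central protuberance, by 1.32 (SE 0.36; adjusted p = 0.0156). The differences of Mrpl52, Mrps18b, Mrpl18, Mrpl42 and Mrpl48 held under all 25 alternatives.

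Mrpl1 (of the stalk that moves with the departing tRNA), Mrps16 and Mrpl4 had differences of 0.84, 0.84 and 0.71 (adjusted p = 0.0206, 0.0220 and 0.0346), and Mrps18a was the only gene with a lower value, −1.77 (SE 0.50; adjusted p = 0.0189). The Mrps18a difference was not called without the 3 shallow libraries (−0.69, adjusted p = 0.0794), nor without 2iL+SA replicate 3 (−1.25, 0.0509) or EpiLC replicate 3 (−1.23, 0.0514), the libraries in which the gene was highest in their groups (84.2 and 117 CPM). Mrps16 was not called without 2iL replicate 4 (0.0521) or EpiLC+SA replicate 4 (0.0576), and Mrpl4 was not called in 12 of 25 alternatives (up to 0.0760). Without EpiLC replicate 2 the count of higher genes was 14.

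Genes that build or serve the mitoribosome were counted from lists beside its proteins. Of 27 assembly genes tested, 9 were lower and 1 higher in EpiLC+SA than in EpiLC, where 15.8% of all genes were called lower and 12.1% higher, with a median log2 fold change of −0.44. Mterf4, which with Nsun4 acts on the large subunit rRNA, had −1.70 (SE 0.29; adjusted p = 8.96e-05). The pseudouridine synthase Trub2 had −1.46 (SE 0.28; adjusted p = 3.35e-04) and the GTPase Gtpbp8 −1.79 (SE 0.43; adjusted p = 0.00284). Malsu1, the partner of Mrpl14, was the 1 higher gene (0.57, SE 0.20; adjusted p = 0.0335), named after its values were seen. Between 8 and 12 assembly genes were lower under every alternative run. With hemin 7 of the 27 were higher and 1 lower, where 10.5% of all genes were called higher and 5.95% lower, with a median of 0.40, and without EpiLC+SA replicate 2 the count higher was 4.

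Of 15 translation factor genes 3 were higher and 3 lower with SA in the transition, against 12.1% and 15.8% of all genes. The lower genes were the initiation factors Mtif2 (−0.90, SE 0.17; adjusted p = 3.61e-04) and Mtif3 (−1.60, SE 0.36; adjusted p = 0.00185) and the Cox1 translation activator Taco1 (−1.85, SE 0.44; adjusted p = 0.00295). In naive cells 14 of the 15 had a negative log2 fold change with SA and none was called. Of 10 genes of mitochondrial DNA transcription and replication 0 were higher and 1 lower against the same shares (Mterf1b, −2.46, SE 0.80; adjusted p = 0.0233). Ict1, the peptidyl-tRNA hydrolase of the large subunit, was the only gene called of the 6 mitoribosome proteins with other symbols (−1.08, SE 0.31; adjusted p = 0.0113).

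The rRNAs of the mitoribosome, looked at after their values were seen, were both higher with SA in the transition. The 16S rRNA gene mt-Rnr2 had a mean of 21445 CPM in EpiLC and 41154 CPM in EpiLC+SA, with no overlap (log2 fold change 0.94, SE 0.21; adjusted p = 0.00180). The 12S rRNA gene mt-Rnr1 had 16670 and 29251 CPM with overlap (0.81, SE 0.25; adjusted p = 0.0154), and without EpiLC replicate 4 or EpiLC+SA replicate 3 only 1 of the 2 was called. Both were lower with hemin, by −0.92 and −1.10. These are read levels in 3′ libraries and were not set against total rRNA. Cytosolic ribosomal protein genes gave 20 of 81 higher and 0 lower with SA in the transition, against 12.1% and 15.8% of all genes, with a median of 0.56, while in naive cells they had a median of −0.19 with 0 called.

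Transcript length is 1 feature that the selection rule did not use. Over the annotated transcripts of each gene, the mitoribosome genes had a median length of 1051.5 bases (405 to 6073) against 1914 bases over the tested genes with a length. In the fifth of genes with the shortest transcripts, all genes had a median log2 fold change of 0.24 in EpiLC+SA over EpiLC, and the 26 mitoribosome genes there one of 0.32. In the fifth with the longest transcripts these medians were −0.21 and, for 4 mitoribosome genes, −0.23. In the classes between, from shorter to longer, the medians of all genes were 0.10, −0.01 and −0.08. Those of the 29, 9 and 8 mitoribosome genes there were −0.16, 0.04 and 0.23, so these genes did not follow the order by length. In 2iL+SA over 2iL the medians of all genes lay between −0.02 and 0.09 in the 5 length classes, and those of the mitoribosome genes between −0.44 and −0.24. The lower naive levels were thus seen in each length class.

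The mitoribosome genes lie on many chromosomes, and some share their place with a gene on the other strand. By the GENCODE M21 gene bodies (GRCm38), among genes of the count table, Mrps18a overlaps Rsph9, Mrps18b overlaps Gm16279, Mrpl14 overlaps Tmem63b, Mrpl18 overlaps Tcp1 and Mrpl27 overlaps Eme1. Mrps7 overlaps Gga3 and Mif4gd, Mrpl19 overlaps Gcfc2, Mrpl24 overlaps Rrnad1 and Mrpl12 overlaps Gm16755. Mrpl17 overlaps Gm15645, Mrpl36 overlaps Ndufs6, Mrpl48 overlaps Rab6a and Mrps34 overlaps Mapk8ip3. On the same strand, Mrpl2 overlaps Gm26904, Mrps24 overlaps Urgcp and Mrps6 overlaps Slc5a3 and Gm16310. Also on the same strand, Mrps28 overlaps Gm15466 and Mrpl21 overlaps Mir6984, and on the other strand they overlap Gm15467 and Ighmbp2. Mrpl46 and Mrps11, both members, overlap each other on opposite strands. Further overlaps with the other strand are Mrpl13 with Mtbp, Mrpl33 with Rbks, Mrpl44 with Wdfy1 and Mrpl47 with Actl6a and Ndufb5. The same holds for Mrpl49 with Syvn1, Mrpl9 with Oaz3, Mrps25 with Nr2c2, Mrps26 with 4930473A02Rik and Mrps30 with B430218F22Rik. The strand setting used in counting is not given in the sources used here, so reads from the overlapping stretches cannot be told apart. Whether the sequenced 3′ ends lie in these stretches was not tested.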

How the data were processed

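RNA of 24 libraries of ES-E14TG2a cells was sequenced after 3′ library preparation, single-end. Per the study methods, the authors aligned reads to mm10 with HISAT2 and counted them per gene with HTSeq (FastQC 0.11.7, SAMtools 1.5), discarding reads with several alignments; the annotation release and strand setting are not given in the sources used here. The deposited table holds raw counts. The members and gene lists were chosen with earlier results of these data known. Genes were filtered with filterByExpr (minimum count 5), scaled by TMM and fitted with edgeR 4.0.16 (R 4.3.3; quasi-likelihood, robust, 1 model of 6 groups), with p-values adjusted by Benjamini and Hochberg over 16067 genes and called under 0.05. CPM values use TMM-scaled totals; SE is the log2 fold change over the root of F. The fit was tested on simulated data. DESeq2 1.42.0, other scalings, other filters, a replicate block, and leaving out libraries were tried. All mitoribosome genes called were named, beside genes fixed by function, the most and least counted in 2iL and genes named after their values were seen. Calls were followed gene by gene under the alternatives for up to 10 per direction with the smallest adjusted p for SA in the transition. In other comparisons up to 4 per direction were followed, and for the difference of responses all genes called. Lengths and overlaps came from GENCODE (GRCm38), promoters from RefSeq.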

Additional observations from a re-analysis of the deposited data

Results flagged for a closer look

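Groups of 4 libraries were checked for 33 of the named genes and for the summed level of all 76. In 21 of 204 groups, 1 library lay far from its group, where chance gives about 1 in 20. Of these, 8 were 2iL+SA replicate 3 and 5 were EpiLC+SA+H replicate 1, both among the shallow libraries. In 2iL+SA replicate 3, Mrpl12 (203 CPM, others 91.6 to 106), Mrpl19 (57.2, others 25.1 to 30.0), Mrpl37 (101, others 53.5 to 59.9), Mrpl41 (49.5, others 16.4 to 19.5) and Mrps18a (84.2, others 26.2 to 30.2) were high, and Mrpl18 (58.3, others 84.5 to 88.1), Mrpl52 (49.0, others 82.9 to 89.8) and Mrps14 (16.5, others 45.2 to 46.1) were low. In EpiLC+SA+H replicate 1, Mrpl12 (274 CPM), Mrpl19 (42.6), Mrpl37 (139) and Mrpl55 (41.2) were high and Mrpl23 (22.8) was low. Shallow depth and these levels moved together, and the part of depth in them was not tested.

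The other 8 stood singly or in pairs. Mrpl23 was high (32.7 CPM) and Mrpl37 low (54.0 CPM) in 2iL+SA+H replicate 3. Mrps12 reached 16.2 CPM in 2iL+SA+H replicate 1 and Mrps16 109.9 CPM in 2iL+SA+H replicate 4. Mrpl4 reached 71.3 CPM in 2iL+SA replicate 4, Mrps18b 16.3 CPM in EpiLC+SA replicate 3 and Mrps22 48.0 CPM in EpiLC+SA+H replicate 4, while Mrps7 was low in EpiLC replicate 3 (30.2 CPM).

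The response to SA differed between the transition and naive cells, by the test of the difference itself, for 9 genes. The differences in log2 units were 1.22 for Mrpl52, 2.28 for Mrps18b, 1.37 for Mrpl18, 1.18 for Mrpl42, 1.32 for Mrpl48, −1.77 for Mrps18a, 0.84 for Mrpl1, 0.84 for Mrps16 and 0.71 for Mrpl4.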

How the results depend on the processing

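All 7 pairwise comparisons and the difference of the SA responses were refitted under the alternatives. The count lower with hemin in the transition (4) was 2 with DESeq2 size factors, library totals alone or no filter. Of all genes 5.83%, 3.26% and 3.11% were then called lower. The count was also 2 without mitochondrially encoded genes (chosen after seeing the data) or with only the groups compared, against 5.18% and 5.79%. With library totals alone the median of all genes was 0.18 there. The count higher with hemin (3) was then 9, against 14.4% of all genes. With SA in the transition the count higher (8) was then 4, against 9.14% of all genes. Without the 3 shallow libraries SA in the transition gave 15 lower, hemin 7 higher and 10 lower, and the difference of responses 0 lower (1). Over all genes these shares were 18%, 13.8%, 9.55% and 9.99%. With only the groups compared SA in the transition gave 5 lower, against 13.7% of all genes. DESeq2 gave 5 higher with hemin in the transition and 3 lower in 2iL+SA against 2iL, where 12.8% and 0.691% of all genes were called. Summed levels were 4239.8 CPM in 2iL+SA with library totals alone, and 5745, 4596, 5402 and 5825 CPM in 2iL, 2iL+SA, 2iL+SA+H and EpiLC+SA+H without mitochondrially encoded genes, by the smaller totals. The cause of the other shifts was not tested.

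Leaving out 1 library at a time gave 3 to 8 higher and 1 to 8 lower in EpiLC against 2iL, 4 to 10 and 4 to 9 with SA in the transition, 2 to 5 and 2 to 3 with hemin, 6 to 14 and 0 to 1 for the difference of responses, and 0 in the other comparisons. The shares of all genes by direction are not given for the fits that leave out 1 library. Mrps18c with SA in the transition turned from 0.22 to −0.041 without EpiLC replicate 3 (−0.041 to 0.41 leaving out 1 library) and to −0.010 without the shallow libraries, and Mrps5 from 0.11 to −0.029 without EpiLC replicate 3. Deviations of same-numbered libraries correlated at 0.060 to 0.16 in EpiLC+SA and EpiLC, where every library correlated best with its own number, a hint from the data, not the design. They correlated at −0.069 to 0.31 in 2iL+SA and 2iL, best with the own number for 3 of 4, and from −0.26 to 0.40 elsewhere. In no comparison did all 4 exceed 0.1. These values cannot decide whether same-numbered libraries were paired, and the sources used here do not state it. With the replicate block the counts higher and lower were 6 and 8 in EpiLC against 2iL (14.3% and 13.6% of all genes). They were 9 and 7 with SA in the transition (12.2% and 15.3%) and 4 and 6 with hemin (10.6% and 6.09%). For the difference of responses they were 9 and 1 (5.79% and 8.62%), and they were 0 elsewhere (at most 0.162%). Mrpl14, Mrpl23 and Mrpl41 were not called with SA under the block (adjusted p 0.0504 to 0.0636). Mrps18b and other genes under 20 CPM rest on few counts in the shallow libraries.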
